A study of Mus musculus with 9 samples.

Results

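Chemokines and their receptors were examined in sorted smooth muscle cells of the mouse lung. The members were all protein-coding genes of the expression table whose symbols follow the chemokine nomenclature: the Ccl, Cxcl, Cx3cl and Xcl ligands, the Ccr, Cxcr, Cx3cr and Xcr signalling receptors, and the atypical receptors Ackr1 to Ackr4 and Ccrl2. This gave 56 genes of the 21049 in the table (15963 of them protein coding), 34 ligands and 22 receptors. Of these, 43 reached the minimum level for a test, a normalized count of at least 10 in at least 3 libraries. RNA was sequenced from 3 libraries of each of 3 populations isolated by fluorescence-activated sorting, so that the smooth muscle types of the lung could be set against each other. SmMCll libraries held smooth muscle cells of the entire lung, veins included, from mice with a GFP transgene under Acta2 control (tg-Acta2-GFP). PASMCs libraries held arterial cells from ASMC-effector mice, labelled Cspg4/Acta2-CreER/R26-GFP. BSMCs libraries held bronchial cells from NVSMC-effector mice, labelled Chrm2/Acta2-CreER/R26-GFP. All 9 samples carry a tamoxifen label, 0.75 mg per 10 g of body weight for 3 days, including the SmMCll samples whose labels name no Cre. Acta2, the smooth muscle actin gene that drives the transgene or Cre in every line, is also transcribed in other contractile cells such as myofibroblasts. Each population had its own mouse line, so population, line and sort cannot be told apart in any comparison.

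Chemokines are small secreted proteins that direct the migration and positioning of leukocytes through receptors coupled to G proteins. CC and CXC ligands are named for the spacing of their conserved cysteines, and ligands and receptors pair promiscuously. Homeostatic ligands such as Cxcl12, Ccl19 and Ccl21a position cells in resting tissue, whereas inflammatory ligands such as Ccl2 and Cxcl1 are induced by cytokines. Atypical receptors bind chemokines without the usual G protein signal and remove them or shape their gradients. Smooth muscle and fibroblasts of the vessel and airway wall can make several ligands, while most signalling receptors belong to leukocytes.

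Depth, read from the spacing of the whole-number values, was 8.93 to 9.90 M reads in SmMCll, 8.92 to 10.0 M in PASMCs and 6.39 to 9.33 M in BSMCs. Myh11, the smooth muscle myosin heavy chain, was abundant in all groups, at 10927 ± 1263 in SmMCll, 11958 ± 674 in PASMCs and 10536 ± 1196 in BSMCs (normalized counts, mean ± SD, n = 3 each, as throughout). Acta2 was at 3017 ± 109, 3290 ± 201 and 3948 ± 628 in the same order. The summed level of 10 smooth muscle markers, Acta2 and Myh11 among them, was lowest in SmMCll, at 3506 to 3907 CPM. It was 4156 to 4671 in PASMCs and 4549 to 5422 in BSMCs. Chrm2, the muscarinic receptor gene that names the BSMCs line, was at 305 ± 57.9 in SmMCll, 327 ± 111 in PASMCs and 164 ± 54.6 in BSMCs. By mean it was thus lowest in the group whose line it names. The BSMCs libraries, at 115 to 223, lay below those of SmMCll, at 240 to 351, but overlapped those of PASMCs, at 199 to 398. Cspg4, the NG2 proteoglycan gene that names the PASMCs line, was at 555 ± 211 in SmMCll, 2003 ± 370 in PASMCs and 1514 ± 244 in BSMCs. Group names below therefore stand for libraries so labelled. BSMCs replicate 2 stood apart from the other BSMCs libraries on the first principal component, toward both PASMCs and SmMCll. Results that rest on it are given with and without it.

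The summed chemokine ligand and receptor RNA was lowest in the PASMCs libraries, and the SmMCll libraries lay close together within the range of the BSMCs libraries. Summed over the 56 genes, levels ran from 13702 to 13926 normalized counts in SmMCll, from 8505 to 9907 in PASMCs and from 10145 to 14107 in BSMCs. The makeup differed: 24 genes were at 10 or more in every SmMCll library, 21 in every PASMCs library and 39 in every BSMCs library. Conversely 5 genes were at 0 in all 3 SmMCll libraries, 15 in all 3 PASMCs libraries and 3 in all 3 BSMCs libraries. The summed level of the 5 atypical receptors separated SmMCll, at 2957 to 3297, from PASMCs, at 1445 to 1879, and from BSMCs, at 1542 to 2064. The 9 CC receptors summed to 30 to 60 in SmMCll, 4 to 11 in PASMCs and 508 to 813 in BSMCs.

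**Figure D1:**
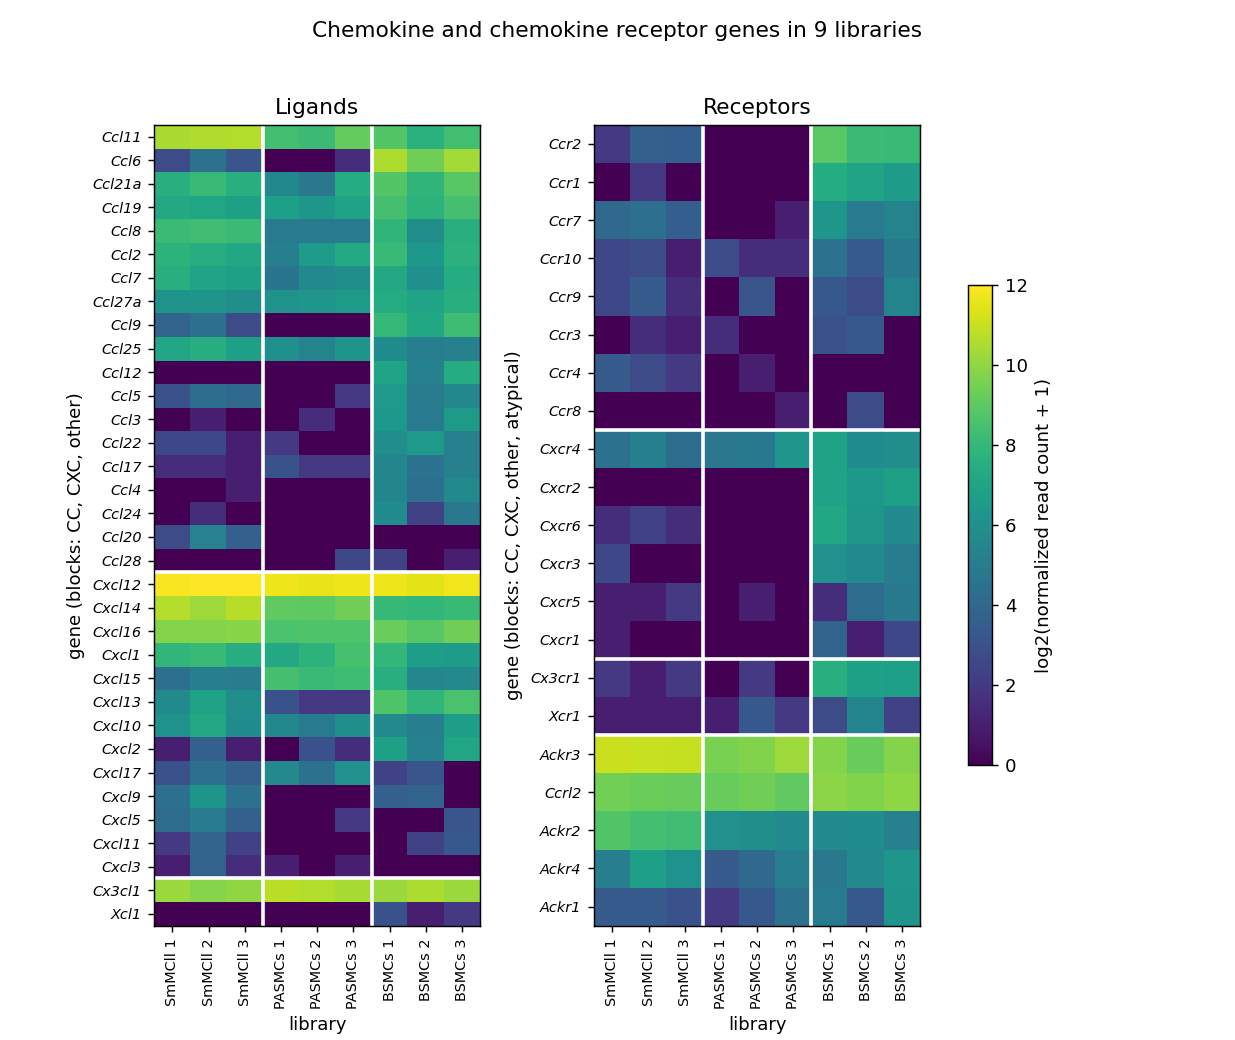
Levels of 55 chemokine and receptor genes in the 9 libraries, as log2 of the normalized count plus 1, with SmMCll, PASMCs and BSMCs libraries from left to right and genes grouped by role. A block of CC and CXC receptors and of CC ligands is at or near 0 in SmMCll and PASMCs and detected in BSMCs, while Cxcl12, Cx3cl1 and Ackr3 are high in every library.

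Per kilobase of exon, which allows genes to be compared, the leading members differed between groups. In SmMCll the highest were Ccl11 (1380 normalized counts per kb), Cxcl14 (821), Ackr3 (613), Ccl8 (584) and Cxcl12 (484). In PASMCs they were Cxcl12 (399), Cx3cl1 (397), Ccl11 (374), Cxcl14 (314) and Ackr3 (284). In BSMCs they were Ccl6 (636), Ccl21a (442), Cxcl12 (389), Ccrl2 (358) and Ccl19 (354). Cxcl12 was the only gene among the leading 5 of all groups.

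Tested chemokine genes were called lower in PASMCs than in BSMCs more often than they were called higher, also among those that met the minimum level without the BSMCs libraries. A gene is called higher or lower where its adjusted p was under 0.05 (limma on log2 of value plus 1, Benjamini-Hochberg over 15647 genes). Of the 43 members, 29 were called in PASMCs against BSMCs, 3 higher (Cxcl14, Cxcl15 and Cxcl17) and 26 lower, where 22.1% of all tested genes were called, 13.2% higher and 8.88% lower. The median log2 fold change of all 43 was -2.14, beside 0.05 over all genes. For 17 members the minimum level was met only with the BSMCs libraries counted, so a difference was built into their selection. Those reported here by name were Ccl3, Ccl4, Ccl5, Ccl6, Ccl9, Ccl12, Ccl17, Ccl22, Ccr1, Ccr2, Ccr10, Cx3cr1, Cxcl2, Cxcr2, Cxcr3 and Cxcr6. Cxcl17 met it only with the PASMCs libraries counted. Without those libraries 2 members were called higher and 26 lower (66.7%), beside 22.3% of genes. Among the 26 members that met it without BSMCs, 3 were called higher and 9 lower (46.2%), beside 20.8% of the 14730 genes chosen the same way.

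Called members were mostly higher in SmMCll than in PASMCs. In SmMCll against PASMCs 20 members were called, 18 higher and 2 lower (Cx3cl1 and Cxcl15), against a background of 16.2% of genes, 9.39% higher and 6.83% lower. The median log2 fold change of all 43 was 1.00, beside 0.03 over all genes. Cxcl5 and Cxcl9 met the minimum only with the SmMCll libraries counted, so a difference was built into their selection. Among the 41 members that met it without SmMCll, 16 were higher and 2 lower (43.9%), beside 15.6% of genes. Among the 26 members that met the minimum without BSMCs, 14 were higher and 2 lower (61.5%), beside 16.7% of genes. In SmMCll against BSMCs 32 members were called, 9 higher and 23 lower, against a background of 41.9%, 23.7% higher and 18.2% lower. Among the same 26 members 9 were higher and 6 lower (57.7%), beside 41.7% of genes. The median of all 43 was -1.38, beside 0.05 over all genes. The 3 comparisons share libraries and are not independent of each other. Nothing in the labels ties replicates to separate animals. The p-values set the difference between groups against the spread of libraries within groups, and that spread may be technical.

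**Figure D2:**
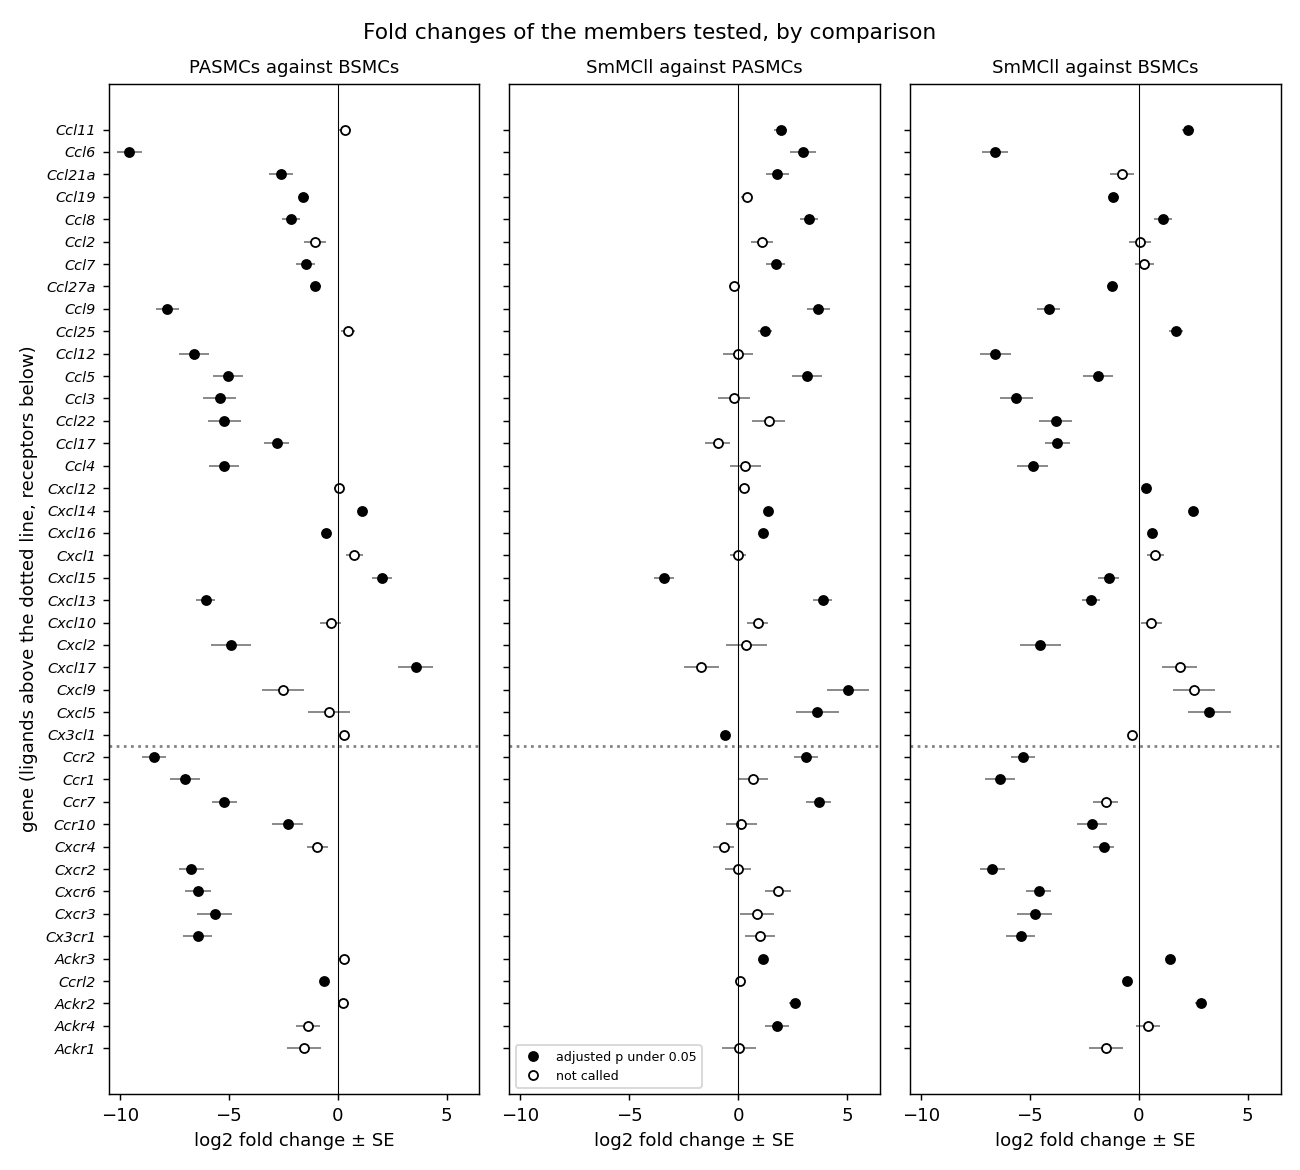
Log2 fold changes of 42 tested members in the 3 comparisons, with bars of 1 standard error and filled points for an adjusted p under 0.05. Most points lie left of 0 for PASMCs against BSMCs and right of 0 for SmMCll against PASMCs (18 called higher). Where a group is at 0 in all its libraries, the fitted value depends on the pseudocount of 1.

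Combining the comparisons, 39 of the 43 tested members were called in at least 1 (90.7%, beside 48.7% of all tested genes). Of these, 21 were lower in both SmMCll and PASMCs than in BSMCs (48.8%, beside 6.19% of genes). For 17 of the 21 the minimum level was met only with the BSMCs libraries counted, and without that selection the pattern remained for Ccl19, Ccl27a, Ccrl2 and Cxcl13 (4 of 26, 15.4%, beside 4.34% of genes). A further 8 members were higher in SmMCll than in either other group (18.6%, beside 6.75% of genes), 7 of 41 (17.1%, beside 6.03%) when the minimum had to be met without the SmMCll libraries. Cxcl15 was called higher in PASMCs than in either other group. Ackr1, Ccl2, Cxcl1 and Cxcl10 were called in none.

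Cxcl12, the ligand of Cxcr4 and Ackr3 that retains blood progenitors and guides vessel growth (ENSMUSG00000061353, mm39 chromosome 6, 117145496 to 117158328), had the highest normalized counts of all members. It had 3799, 4010 and 4064 in the SmMCll libraries, 3339, 3092 and 3354 in the PASMCs libraries and 3271, 2901 and 3377 in the BSMCs libraries. Every SmMCll library lay above all others, and the PASMCs and BSMCs ranges overlapped. Its means were 3958 ± 140 in SmMCll, 3262 ± 147 in PASMCs and 3183 ± 250 in BSMCs. It was called in SmMCll against BSMCs (log2 fold change 0.32, SE 0.10, adjusted p = 0.0227), but not in SmMCll against PASMCs (0.28, adjusted p = 0.0765) or PASMCs against BSMCs (0.04, adjusted p = 0.798). Rescaling the libraries to equal totals ended that call (adjusted p = 0.206).

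Cx3cl1, or fractalkine, a membrane-anchored ligand that tethers monocytes (ENSMUSG00000031778, chromosome 8, 95498637 to 95509055), was second by the mean of all 9 libraries, though below Ackr3, Cxcl14 and Ccl11 as well in SmMCll. It was at 1164, 907 and 1027 in SmMCll, 1720, 1559 and 1397 in PASMCs and 1180, 1461 and 1181 in BSMCs. No SmMCll library reached the lowest PASMCs library, and the BSMCs libraries lay between or within the PASMCs range. It was lower in SmMCll than in PASMCs (-0.60, SE 0.14, adjusted p = 0.0137), a fold of 1.51. Its receptor gene Cx3cr1, a marker of monocytes and macrophages, had 3, 1 and 3 normalized counts in SmMCll, 0, 3 and 0 in PASMCs and 192, 116 and 109 in BSMCs. BSMCs exceeded the others by far and without overlap (SmMCll against BSMCs -5.41, SE 0.67, adjusted p = 9.3e-05; PASMCs against BSMCs -6.41, SE 0.67, adjusted p = 5.73e-05, and -7.08 without PASMCs replicate 2). By reads, BSMCs were at 150 times the 3 reads of PASMCs (51.0 to 731, the exact 95% interval for counting error).

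Cxcl16, another membrane-anchored ligand, which pairs with Cxcr6 (ENSMUSG00000018920, chromosome 11, 70344809 to 70350810), was at 877, 870 and 936 in SmMCll, 384, 417 and 413 in PASMCs and 602, 476 and 678 in BSMCs. The 3 ranges did not overlap. It was 2.21-fold higher in SmMCll than in PASMCs (adjusted p = 0.000421) and 1.54-fold higher than in BSMCs (adjusted p = 0.00766). The difference of PASMCs from BSMCs (-0.52, adjusted p = 0.0338) did not hold when most single libraries were left out. Cxcr6, a receptor of resident T and NKT cells, was at 2, 4 and 2 in SmMCll, at 0 in all PASMCs libraries and at 139, 81 and 54 in BSMCs. The BSMCs mean was at least 32.9-fold higher than PASMCs, taking a floor of 3 reads per PASMCs library (adjusted p = 2.4e-05). SmMCll was 24.1-fold lower than BSMCs (adjusted p = 0.000123).

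Cxcl14, a conserved CXC ligand of epithelium and stroma (ENSMUSG00000021508, chromosome 13, 56436456 to 56444364), separated all 3 groups. It had 1620, 1221 and 1657 normalized counts in SmMCll, 534, 523 and 665 in PASMCs and 263, 246 and 278 in BSMCs. The ranges did not overlap, and SmMCll was highest and BSMCs lowest. Its log2 fold changes were 1.12 in PASMCs against BSMCs (SE 0.16, adjusted p = 0.000638), 1.38 in SmMCll against PASMCs (SE 0.16, adjusted p = 0.000193) and 2.50 in SmMCll against BSMCs (SE 0.16, adjusted p = 1.05e-06). These 3 calls were kept in all 20 alternative settings.

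Ccl11, or eotaxin, which recruits eosinophils through Ccr3 (ENSMUSG00000020676, chromosome 11, 81948649 to 81953781), had 1404, 1505 and 1569 in SmMCll, 333, 303 and 577 in PASMCs and 437, 202 and 329 in BSMCs. The lowest SmMCll library was above every other library, and the PASMCs and BSMCs ranges overlapped. The gene was 3.84-fold higher in SmMCll than in PASMCs (1.94, SE 0.29, adjusted p = 0.000738) and 4.84-fold higher than in BSMCs (2.27, SE 0.29, adjusted p = 0.000112). Ccr3 stayed at 9 or below in every library.

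Ackr3, the scavenging receptor of Cxcl12 (ENSMUSG00000044337, chromosome 1, 90131702 to 90144473), was the most abundant receptor in SmMCll and PASMCs and was second to Ccrl2 in BSMCs, at 2129, 2055 and 1977 in SmMCll, 768, 859 and 1228 in PASMCs and 888, 585 and 885 in BSMCs. SmMCll lay above both others without overlap, by 2.20-fold over PASMCs (adjusted p = 0.00214) and 2.66-fold over BSMCs (adjusted p = 0.000237). Cxcr4, the signalling receptor of Cxcl12, ran the other way, at 21, 35 and 18 in SmMCll, 26, 28 and 77 in PASMCs and 121, 57 and 60 in BSMCs. It was lower in SmMCll than in BSMCs (-1.61, SE 0.48, adjusted p = 0.0204), and PASMCs were not called against either. Per kilobase of exon, Ackr3 stood at 45.0 times Cxcr4 in SmMCll, 11.8 times in PASMCs and 5.35 times in BSMCs. Cxcl12 stood at 0.789 times Ackr3 in SmMCll, 1.40 times in PASMCs and 1.66 times in BSMCs.

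Ackr2, the scavenger of inflammatory CC chemokines (ENSMUSG00000044534, chromosome 9, 121727421 to 121740140), was at 430, 345 and 317 in SmMCll, 66, 59 and 53 in PASMCs and 55, 57 and 38 in BSMCs. SmMCll libraries were far above the rest, and PASMCs and BSMCs overlapped. The fold was 6.02 over PASMCs (2.59, SE 0.25, adjusted p = 5.22e-05) and 7.21 over BSMCs (2.85, SE 0.25, adjusted p = 9.56e-06). Ackr4, which clears Ccl19, Ccl21 and Ccl25, was at 34, 109 and 70 in SmMCll, 10, 16 and 34 in PASMCs and 27, 50 and 77 in BSMCs. The groups touched or overlapped, and the only call was SmMCll against PASMCs, 1.79 with an adjusted p of 0.0487. Ackr1, the Duffy receptor of venules and red cells, was at 10, 10 and 7 in SmMCll, the group stated to include veins, 3, 9 and 22 in PASMCs and 30, 9 and 73 in BSMCs, with overlapping groups and no call.

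Ccrl2, a chemerin-binding receptor that does not signal (ENSMUSG00000043953, chromosome 9, 110883554 to 110886587), was at 694, 624 and 586 in SmMCll, 598, 665 and 542 in PASMCs and 955, 841 and 991 in BSMCs. Unlike Ackr2 and Ackr3, it was lower in SmMCll than in BSMCs (1.46-fold, adjusted p = 0.00956) and lower in PASMCs than in BSMCs (1.54-fold, adjusted p = 0.00931). SmMCll and PASMCs overlapped.

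**Figure D3:**
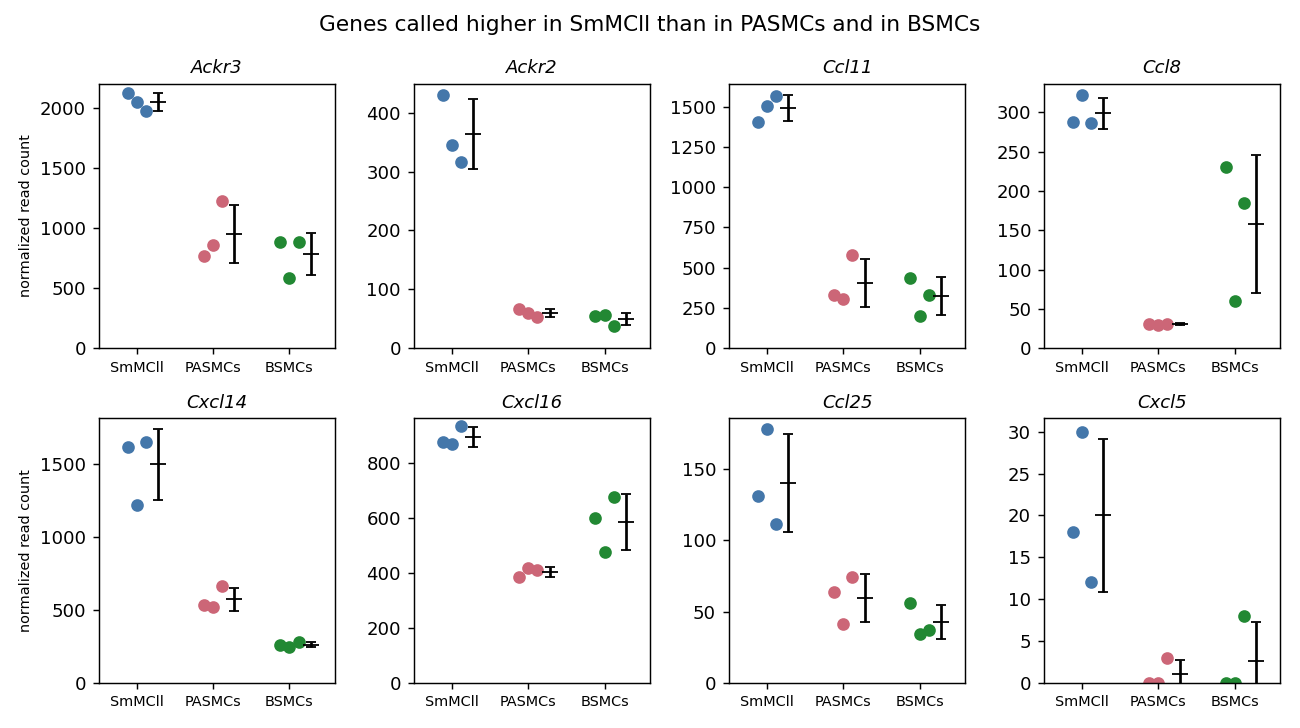
Normalized counts by library for 8 members that were called higher in SmMCll than in PASMCs and in BSMCs, on a linear axis from 0 with its own scale for each gene; points are libraries, and the lines beside them are the group mean with SD (n = 3). The SmMCll points lie above every other library for Ccl11 (lowest 1404), Ackr3 (lowest 1977) and Ackr2 (lowest 317), and PASMCs and BSMCs overlap for these genes.

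Mesothelial, fibroblast and endothelial markers were called higher in SmMCll than in PASMCs more often than the 9.39% of all genes. The summed level of 8 mesothelial markers was 667 to 830 CPM in SmMCll, 35.8 to 59.3 in PASMCs and 83.2 to 196 in BSMCs, and 8 of 8 were higher in SmMCll than in PASMCs. Fibroblast markers summed to 8010 to 8833 CPM in SmMCll, 5853 to 6660 in PASMCs and 4962 to 6385 in BSMCs, with 5 of 16 higher than in PASMCs. Lymphatic endothelial markers summed to 278 to 382 CPM in SmMCll, 153 to 186 in PASMCs and 197 to 262 in BSMCs, with 4 of 6 higher than in PASMCs. Blood endothelial markers summed to 2014 to 2426 CPM in SmMCll, 1257 to 1567 in PASMCs and 1701 to 2032 in BSMCs, with 9 of 15 higher than in PASMCs. Against BSMCs, 7 of 8 mesothelial, 8 of 16 fibroblast, 4 of 6 lymphatic and 5 of 15 blood endothelial markers were higher. The share over all genes was 23.7%. Of 10 smooth muscle markers none was higher in SmMCll. Against PASMCs 3 of them were lower (all genes 6.83%) and against BSMCs 6 (18.2%). Of 10 pericyte markers 3 were higher and 4 lower against PASMCs, and 3 higher and 6 lower against BSMCs. The part of any of these cell types in the chemokine levels was not tested. In bulk samples fewer cells of a type and less RNA per cell cannot be told apart.

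The neighbouring genes of the chromosome 11 cluster that holds the monocyte chemoattractants (81926397 to 82007625) did not share one pattern. Besides Ccl11, it holds Ccl2 and Ccl7, which attract monocytes through Ccr2, Ccl8, which in the mouse acts through Ccr8, and Ccl12, a mouse relative of Ccl2. Ccl2 had 212, 179 and 141 normalized counts in SmMCll, 35, 95 and 161 in PASMCs and 269, 84 and 210 in BSMCs. Its groups overlapped and no comparison was called (PASMCs against BSMCs -1.04, adjusted p = 0.162), but without BSMCs replicate 2 that comparison passed (-1.53, adjusted p = 0.0309). Ccl7 was at 191, 129 and 112 in SmMCll, 24, 51 and 61 in PASMCs and 149, 64 and 171 in BSMCs. PASMCs lay below both others without overlap, 3.27-fold below SmMCll (adjusted p = 0.0185) and 2.75-fold below BSMCs (adjusted p = 0.0336).

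Ccl8 was at 288, 322 and 286 in SmMCll, 31, 29 and 31 in PASMCs and 230, 60 and 185 in BSMCs. The groups did not overlap, and the PASMCs libraries were nearly equal to each other and the lowest. SmMCll exceeded PASMCs 9.55-fold (3.26, SE 0.41, adjusted p = 0.000265), and PASMCs were 4.40-fold lower than BSMCs (-2.14, SE 0.41, adjusted p = 0.00348). SmMCll against BSMCs gave 1.12 (adjusted p = 0.0447). Without BSMCs replicate 2, the lowest of its group, these were -2.73 in PASMCs against BSMCs (adjusted p = 2.53e-05) and 0.53 in SmMCll against BSMCs (adjusted p = 0.0639). Ccl12 differed from its neighbours: it was at 0 in all 6 SmMCll and PASMCs libraries and at 129, 38 and 171 in BSMCs. BSMCs were at least 39.2-fold higher than SmMCll (adjusted p = 3.44e-05) and at least 40.6-fold higher than PASMCs (adjusted p = 6.58e-05), by the same floor of 3 reads per library.

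The second CC cluster on chromosome 11 (83416604 to 83555509) was high in BSMCs throughout. All of its genes met the minimum level only with the BSMCs libraries counted, so a difference was built into their selection. Ccl6, a rodent ligand of myeloid cells that acts through Ccr1 (ENSMUSG00000018927, 83478708 to 83483913), had 6, 22 and 8 normalized counts in SmMCll, 0, 0 and 2 in PASMCs and 1468, 671 and 1286 in BSMCs. Every BSMCs library was far above every other library. It was called in all comparisons: -6.58 in SmMCll against BSMCs (SE 0.59, adjusted p = 1.09e-05), -9.55 in PASMCs against BSMCs (SE 0.59, adjusted p = 1.61e-06) and 2.97 in SmMCll against PASMCs (SE 0.59, adjusted p = 0.00467). With 2 reads in PASMCs the fitted sizes depend on the pseudocount, and PASMCs against BSMCs ran from -10.3 with 0.5 to -7.60 with 5. By reads, the ratio of BSMCs to PASMCs had an exact 95% interval for counting error from 494 upward. Ccl9, its rodent relative, was at 13, 20 and 6 in SmMCll, 0 in PASMCs and 253, 145 and 306 in BSMCs. It was 17.7-fold lower in SmMCll than in BSMCs (adjusted p = 0.000124), and BSMCs were at least 84.6-fold higher than PASMCs (adjusted p = 3.08e-06).

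Ccl3 and Ccl4, inflammatory ligands of myeloid and T cells, were at 2 or below outside the BSMCs libraries. Ccl3 was at 0, 1 and 0 in SmMCll, 0, 2 and 0 in PASMCs and 82, 29 and 92 in BSMCs (SmMCll against BSMCs adjusted p = 0.000161; PASMCs against BSMCs adjusted p = 0.00042). Ccl4 was at 0, 0 and 1 in SmMCll, 0 in PASMCs and 45, 20 and 51 in BSMCs (SmMCll against BSMCs adjusted p = 0.000264; PASMCs against BSMCs adjusted p = 0.000351). Ccl5, or RANTES, which is made by T cells and platelets, was at 7, 19 and 16 in SmMCll, 0, 0 and 3 in PASMCs and 86, 32 and 47 in BSMCs. Its 3 groups did not overlap, and PASMCs were lowest (SmMCll against PASMCs 3.14, SE 0.69, adjusted p = 0.00835; PASMCs against BSMCs -5.02, adjusted p = 0.000404). With 3 reads in PASMCs, all in replicate 3, these became 3.80 and -5.69 without that library. By reads, SmMCll were at 15.2 times PASMCs (exact 95% interval 4.86 to 76.3) and BSMCs at 58.1 times (19.5 to 285).

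**Figure D4:**
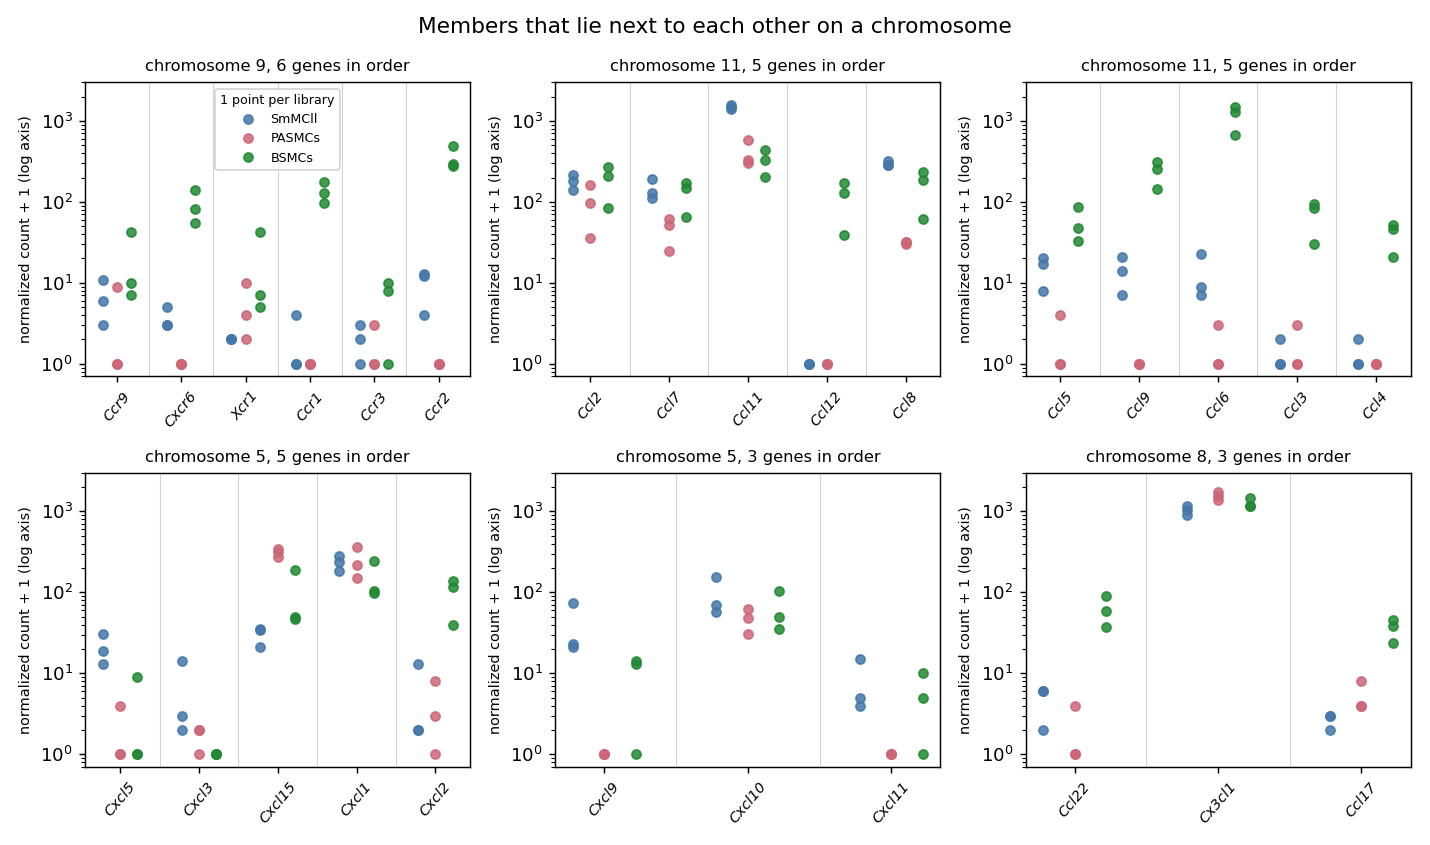
Normalized count plus 1 on a log axis for members that lie side by side in the genome, in chromosomal order within each of 6 clusters, with 1 point per library. In the cluster with Ccl2, Ccl11 and Ccl8 the SmMCll libraries lie highest for Ccl11 and Ccl8 while Ccl12 is at 0 in them, and in the cluster with Ccl5 and Ccl6 the BSMCs libraries lie highest for every gene.

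The signalling receptors of leukocytes were detected mainly in BSMCs. Ccr1, Ccr2, Ccr10, Cxcr2 and Cxcr3 met the minimum level only with the BSMCs libraries counted, so a difference was built into their selection. Ccr2, the receptor of inflammatory monocytes, was at 3, 12 and 11 in SmMCll, 0 in PASMCs and 487, 297 and 274 in BSMCs. The BSMCs libraries were far above all others; SmMCll were 40.0-fold lower than BSMCs (adjusted p = 2.64e-05), BSMCs were at least 127-fold higher than PASMCs (adjusted p = 2.1e-06) and SmMCll at least 3.12-fold higher than PASMCs (adjusted p = 0.00223). Ccr1, a myeloid receptor of Ccl3, Ccl6 and Ccl9, was at 0, 3 and 0 in SmMCll, 0 in PASMCs and 174, 127 and 95 in BSMCs (adjusted p = 3.81e-05 against SmMCll and 3.64e-05 against PASMCs). All 3 SmMCll reads of Ccr1 were in replicate 2, and SmMCll against BSMCs was -6.35 with it and -7.01 without it.

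Cxcr2, the neutrophil receptor of Cxcl1, Cxcl2 and Cxcl5 (ENSMUSG00000026180, chromosome 1, 74193148 to 74200405), was at 0 in all 6 SmMCll and PASMCs libraries and at 118, 84 and 113 in BSMCs. BSMCs were at least 36.5-fold higher than SmMCll (adjusted p = 8.8e-06) and at least 37.8-fold higher than PASMCs (adjusted p = 1.89e-05). Cxcr3, the receptor of activated T cells and NK cells, was at 5, 0 and 0 in SmMCll, 0 in PASMCs and 67, 53 and 33 in BSMCs. BSMCs exceeded the highest SmMCll library in each case (SmMCll against BSMCs -4.78, SE 0.79, adjusted p = 0.000712, and -5.64 without SmMCll replicate 1) and were at least 18.4-fold higher than PASMCs (adjusted p = 0.00048). Ccr10, a receptor of skin-homing lymphocytes and plasma cells, was at 5, 6 and 1 in SmMCll, 6, 2 and 2 in PASMCs and 22, 10 and 28 in BSMCs.

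Leukocyte markers moved with these members. The 12 general leukocyte markers summed to 95.2 to 138 CPM in SmMCll, 26.5 to 33.2 in PASMCs and 777 to 1073 in BSMCs. Of 11 tested, 11 were lower in PASMCs than in BSMCs (8.88% of all genes) and 11 in SmMCll than in BSMCs (18.2%). Ptprc, the pan-leukocyte phosphatase CD45, was at 0, 4 and 3 in SmMCll, 0 in PASMCs and 760, 569 and 391 in BSMCs. It thus met the minimum level only with the BSMCs libraries counted. For any marker that did so, a difference was built into its selection. Neutrophil and basophil markers summed to 4.04 to 10.6 CPM in SmMCll, 0.810 to 1.91 in PASMCs and 184 to 295 in BSMCs, and Csf3r was at 0 in all PASMCs libraries. Macrophage and dendritic markers summed to 379 to 468 CPM in SmMCll, 306 to 325 in PASMCs and 1161 to 1940 in BSMCs. Of 15 tested, 9 were higher and 1 lower (Lyz2) in SmMCll against PASMCs, beside 9.39% and 6.83% of all genes. Against BSMCs 14 were lower in PASMCs (8.88% of all genes) and 14 in SmMCll (18.2%). T and NK cell markers summed to 8.04 to 9.24 CPM in SmMCll, 3.13 to 7.29 in PASMCs and 81.3 to 124 in BSMCs, and 11 of 14 were at 0 in all PASMCs libraries. The part of leukocytes in the BSMCs chemokine levels was not tested.

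**Figure D5:**
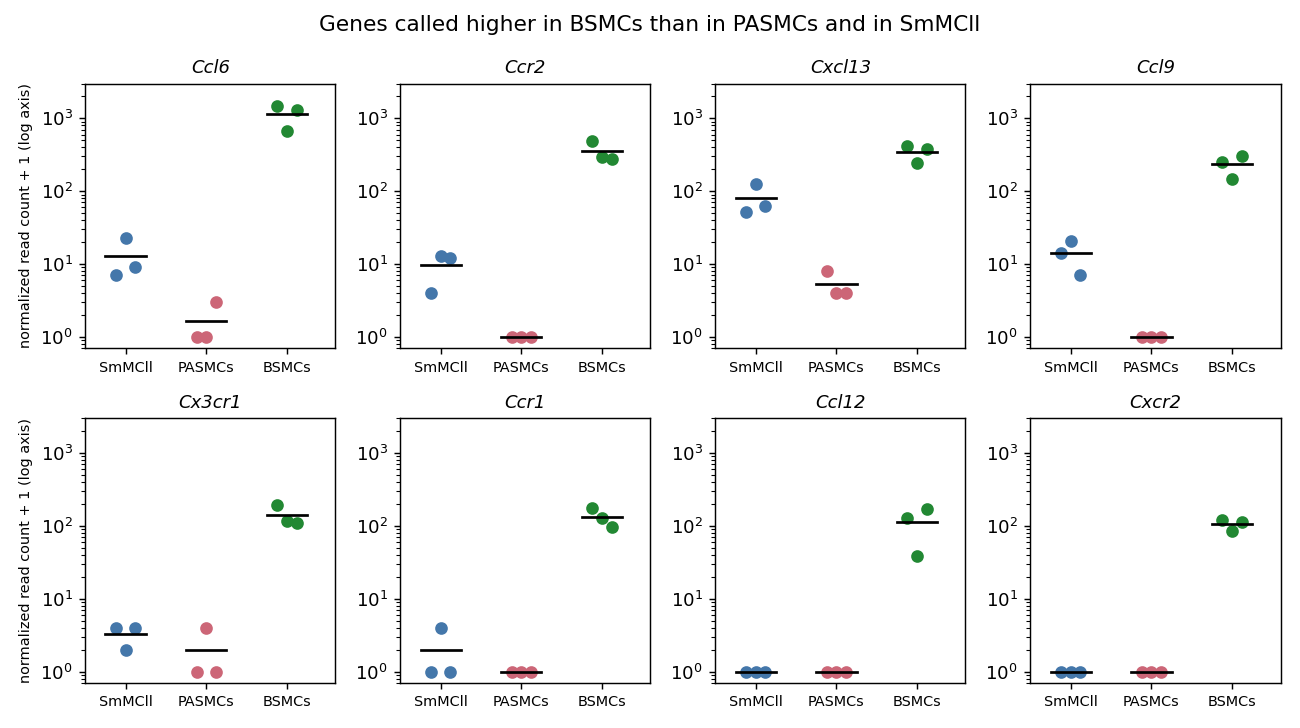
Normalized counts by library for 8 members that were called lower in SmMCll and in PASMCs than in BSMCs, as count plus 1 on a log axis; points are libraries and lines are group means. Every BSMCs library lies above every SmMCll and PASMCs library for Ccl6 (lowest BSMCs value 671), Ccr2 (274) and Cxcr2 (84).

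BSMCs replicate 2 was the lowest of the 3 for 30 of 43 members (69.8%), beside 35.7% of all tested genes. The sum of the general leukocyte markers was also lowest in it, at 777 CPM, against 1073 in replicate 1 and 938 in replicate 3. Single genes could differ, and Ptprc was lowest in replicate 3. Of the members, 10 of 43 (23.3%) were lowest in replicate 3, Ccr1, Ccr2, Cx3cr1, Cxcr3 and Cxcr6 among them. Without BSMCs replicate 2, 32 members were called in PASMCs against BSMCs, with Ackr1, Ccl2 and Cx3cl1 added to the 29 and none lost. Calls over all 15647 tested genes rose as well, from 3451 to 6698, so the added calls are not particular to the members. In SmMCll the members were most often highest in replicate 2, for 23 of 43 (53.5%; 35.1% of all genes), and in PASMCs in replicate 3, for 20 of 43 (46.5%; 37.6% of all genes).

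Ligands that position lymphocytes each had a pattern of their own. Cxcl13, which draws B cells through Cxcr5 (ENSMUSG00000023078, chromosome 5, 96104810 to 96108927), was at 50, 125 and 62 in SmMCll, 7, 3 and 3 in PASMCs and 420, 240 and 377 in BSMCs. All ranges were separate, in the order BSMCs, SmMCll, PASMCs. It was 14.7-fold higher in SmMCll than in PASMCs (3.88, SE 0.43, adjusted p = 0.000119), 66.9-fold lower in PASMCs than in BSMCs (-6.06, SE 0.43, adjusted p = 3.95e-06) and 4.56-fold lower in SmMCll than in BSMCs (-2.19, SE 0.43, adjusted p = 0.00209). B and plasma cell markers had a like order at a different ratio, with sums of 398 to 453 CPM in SmMCll, 4.56 to 5.16 in PASMCs and 470 to 753 in BSMCs. Their part in the Cxcl13 levels was not tested.

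Ccl19 and Ccl21a, the ligands of Ccr7 that guide T cells and dendritic cells, lie next to each other on chromosome 4 (42754525 to 42773993). Ccl19 was at 150, 135 and 113 in SmMCll, 107, 80 and 118 in PASMCs and 350, 217 and 354 in BSMCs. SmMCll and PASMCs overlapped below BSMCs, by 2.26-fold for SmMCll (adjusted p = 0.00363) and 2.97-fold for PASMCs (adjusted p = 0.00125). Ccl21a was at 186, 282 and 183 in SmMCll, 48, 26 and 172 in PASMCs and 445, 231 and 477 in BSMCs. PASMCs replicate 3 approached SmMCll, and the SmMCll and BSMCs ranges overlapped; PASMCs were lower than BSMCs (-2.59, SE 0.55, adjusted p = 0.00651), and SmMCll were higher than PASMCs (1.80, SE 0.55, adjusted p = 0.0436). Leaving out PASMCs replicate 3 gave -3.34 and 2.55 for these comparisons, and leaving out PASMCs replicate 2 gave -2.00 and 1.21, the last no longer called (adjusted p = 0.162). Ccl21a has near-identical copies in the mouse genome, so its count is uncertain where reads could be split between them. Their receptor gene Ccr7 was at 16, 20 and 11 in SmMCll, 0, 0 and 1 in PASMCs and 78, 30 and 40 in BSMCs, with no overlap (SmMCll against PASMCs 3.69, adjusted p = 0.001; PASMCs against BSMCs -5.21, adjusted p = 8.43e-05; SmMCll against BSMCs -1.52, adjusted p = 0.0514).

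The neutrophil-attracting CXC ligands, neighbours on chromosome 5 (90907219 to 91053797), were at different levels from each other, and promoters are shown because 3 of these neighbours share a run of letters known from inflammatory genes. Cxcl1, Cxcl2 and Cxcl3 each hold the NF-kappaB letters, GGGA then any 2 bases then TTCC, searched on both strands, as a run of 11 bases in which a match on each strand overlaps; NF-kappaB is a transcription factor of the inflammatory response. Such a match was present in 1.47% of 32851 promoter windows of 300 bases, and in 5 of the 47 windows of 42 members with a promoter entry. The sequences are from RefSeq on GRCm38.p6, from 250 bases before the start site, 5′ to 3′ on the gene's strand, with the matches to the NF-kappaB letters, and in Cxcl10 also to an interferon element, GAAA then any 2 bases then GAAA, in capitals. The interferon letters were present in 3.44% of the same promoter windows and in 3 of the 47. Letters of the transcription factors STAT and AP-1 were also searched and are not in capitals. STAT letters were present in 8.3% of windows and in 2 of the 47. AP-1 letters were present in 7.81% and in 7 of the 47, Cxcl10 among them.
Cxcl1 (chr5:90890995-90891294, + strand): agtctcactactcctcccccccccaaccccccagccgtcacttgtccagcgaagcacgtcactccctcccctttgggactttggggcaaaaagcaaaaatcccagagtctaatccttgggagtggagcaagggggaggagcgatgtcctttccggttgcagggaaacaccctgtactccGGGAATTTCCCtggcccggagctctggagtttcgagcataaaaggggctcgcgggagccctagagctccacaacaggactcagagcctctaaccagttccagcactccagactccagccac
Cxcl2 (chr5:90903649-90903948, + strand): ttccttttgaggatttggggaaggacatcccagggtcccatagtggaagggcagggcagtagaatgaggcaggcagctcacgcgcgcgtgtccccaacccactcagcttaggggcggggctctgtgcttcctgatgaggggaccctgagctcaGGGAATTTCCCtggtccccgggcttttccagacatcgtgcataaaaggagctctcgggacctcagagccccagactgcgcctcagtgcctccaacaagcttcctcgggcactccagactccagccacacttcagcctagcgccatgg
Cxcl3 (chr5:90785851-90786150, + strand): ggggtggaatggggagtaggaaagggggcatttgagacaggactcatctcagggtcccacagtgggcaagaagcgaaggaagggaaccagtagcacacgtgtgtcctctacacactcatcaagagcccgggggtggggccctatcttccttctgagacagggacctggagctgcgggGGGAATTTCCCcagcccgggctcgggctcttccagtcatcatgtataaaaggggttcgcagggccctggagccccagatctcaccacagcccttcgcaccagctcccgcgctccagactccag
Cxcl10 (chr5:92348840-92349139, - strand): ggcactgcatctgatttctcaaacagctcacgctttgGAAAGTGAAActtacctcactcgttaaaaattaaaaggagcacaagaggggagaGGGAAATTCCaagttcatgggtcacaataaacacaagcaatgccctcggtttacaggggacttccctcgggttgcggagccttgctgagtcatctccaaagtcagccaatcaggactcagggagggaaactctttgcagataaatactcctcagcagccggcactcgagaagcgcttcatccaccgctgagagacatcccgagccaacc
The matches begin 71 bases before the start site in Cxcl1, 97 in Cxcl2, 73 in Cxcl3 and 159 in Cxcl10. A match is a description of letters and not a shown binding site.

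Cxcl1 (ENSMUSG00000029380, mm39 91039100 to 91040974) was well detected in every group, at 236, 278 and 180 in SmMCll, 151, 218 and 366 in PASMCs and 245, 103 and 97 in BSMCs. The ranges overlapped and no comparison was called (PASMCs against BSMCs 0.76, SE 0.39, adjusted p = 0.165; SmMCll against BSMCs 0.75, SE 0.39, adjusted p = 0.136). Both passed without BSMCs replicate 1 (1.19, adjusted p = 0.0439, and 1.18, adjusted p = 0.0238). Cxcl2 was at 1, 12 and 1 in SmMCll, 0, 7 and 2 in PASMCs and 115, 38 and 138 in BSMCs. It was lower than in BSMCs by 23.0-fold in SmMCll (adjusted p = 0.00285) and by 29.7-fold in PASMCs (adjusted p = 0.00356). These log2 values were -4.52 in SmMCll against BSMCs, or -5.42 without SmMCll replicate 2, and -4.89 in PASMCs against BSMCs, or -4.13 without PASMCs replicate 1 and -5.63 without PASMCs replicate 2. Cxcl3 was at 0 in all BSMCs libraries and at 13 in SmMCll replicate 2, with at most 2 elsewhere.

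Cxcl5, an epithelial neutrophil attractant of the same cluster, was at 18, 30 and 12 in SmMCll, 0, 0 and 3 in PASMCs and 0, 0 and 8 in BSMCs. It met the minimum level only with the SmMCll libraries counted, so a difference was built into its selection. SmMCll lay above all other libraries at a low level (3.63 against PASMCs, SE 0.97, adjusted p = 0.0244; 3.24 against BSMCs, SE 0.97, adjusted p = 0.0203). These were 4.30 against PASMCs without PASMCs replicate 3 and 4.30 against BSMCs without BSMCs replicate 3, the only library of each group with reads. Cxcl15, or lungkine, a mouse neutrophil attractant of lung epithelium (ENSMUSG00000029375, chromosome 5, 90942393 to 90950926), was the member called higher in PASMCs than in both other groups. It was at 20, 34 and 33 in SmMCll, 346, 270 and 313 in PASMCs and 188, 46 and 49 in BSMCs. The 3 groups did not overlap, and BSMCs replicate 1 stood above the other BSMCs libraries. PASMCs exceeded BSMCs 4.05-fold (2.02, SE 0.47, adjusted p = 0.0112; 2.67 without BSMCs replicate 1, adjusted p = 0.000363), and SmMCll were 10.6-fold lower than PASMCs (-3.40, SE 0.47, adjusted p = 0.000497).

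Cxcl17, a mucosal ligand of airway epithelium, was at 7, 20 and 12 in SmMCll, 49, 21 and 67 in PASMCs and 4, 8 and 0 in BSMCs. It met the minimum level only with the PASMCs libraries counted, so a difference was built into its selection. PASMCs lay above BSMCs without overlap (3.57, SE 0.80, adjusted p = 0.00906; 4.24 without BSMCs replicate 2 and 2.65 without BSMCs replicate 3) and just above SmMCll, which was not called (-1.70, adjusted p = 0.191). Epithelial markers also differed between groups: their sum was 592 to 787 CPM in SmMCll, 1036 to 1220 in PASMCs and 768 to 940 in BSMCs, with 7 of 14 higher and 2 lower (Hopx and Ager) in PASMCs against BSMCs. Against PASMCs, SmMCll had 3 higher (Krt8, Hopx and Ager) and 5 lower, and against BSMCs 4 higher and 5 lower. As shares, PASMCs against BSMCs gave 50% higher (all genes 13.2%) and 14.3% lower (8.88%). SmMCll against PASMCs gave 21.4% higher (9.39%) and 35.7% lower (6.83%). SmMCll against BSMCs gave 28.6% higher, near the 23.7% of all genes, and 35.7% lower (18.2%). The sum was lower in SmMCll than in BSMCs by group mean, as for Cxcl15 and unlike Cxcl17. The part of epithelial RNA was not tested.

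The interferon-inducible ligands of Cxcr3, neighbours on chromosome 5 (92469206 to 92513344), were low. Cxcl9 was at 20, 72 and 22 in SmMCll, 0 in PASMCs and 12, 13 and 0 in BSMCs. It met the minimum level only with the SmMCll libraries counted, so a difference was built into its selection. SmMCll were at least 13.7-fold higher than PASMCs (adjusted p = 0.00409), while SmMCll against BSMCs missed the threshold (2.53, SE 0.98, adjusted p = 0.0558). Cxcl10 was at 68, 152 and 56 in SmMCll, 47, 30 and 62 in PASMCs and 49, 34 and 104 in BSMCs, with overlapping groups and no call. Cxcl11 reached 14 in SmMCll replicate 2 and no more than 9 elsewhere. In all 3 genes SmMCll replicate 2 was the highest of its group.

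Among the remaining CC ligands, Ccl17 and Ccl22, which attract Ccr4-bearing T cells, were high in BSMCs. Ccl17 was at 2, 2 and 1 in SmMCll, 7, 3 and 3 in PASMCs and 45, 23 and 37 in BSMCs (SmMCll against BSMCs 13.3-fold lower, adjusted p = 0.000419; PASMCs against BSMCs 6.89-fold lower, adjusted p = 0.00549). Ccl22 was at 5, 5 and 1 in SmMCll, 3, 0 and 0 in PASMCs and 58, 90 and 36 in BSMCs (SmMCll against BSMCs 14.0-fold lower, adjusted p = 0.00204; PASMCs against BSMCs adjusted p = 0.000546). With 3 reads of Ccl22 in PASMCs, the fitted value of PASMCs against BSMCs ran from -5.92 with a pseudocount of 0.5 to -3.42 with 5. By reads, BSMCs were at 70.2 times PASMCs (exact 95% interval 23.6 to 343). Both flank Cx3cl1 on chromosome 8 within 66.4 kb, and Cx3cl1 itself did not share their pattern.

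Ccl25, a thymic and gut ligand of Ccr9, was at 131, 178 and 111 in SmMCll, 64, 41 and 74 in PASMCs and 56, 34 and 37 in BSMCs. SmMCll lay above both without overlap (2.35-fold over PASMCs, adjusted p = 0.024; 3.27-fold over BSMCs, adjusted p = 0.00184). Ccl27a, a Ccr10 ligand, was at 71, 73 and 60 in SmMCll, 68, 75 and 91 in PASMCs and 164, 128 and 188 in BSMCs. It was lower in SmMCll than in BSMCs (2.31-fold, adjusted p = 0.0028) and in PASMCs than in BSMCs (2.03-fold, adjusted p = 0.0143). Both genes overlap a gene on the other strand, Ccl25 with Elavl1 (1815 to 2237 in SmMCll, 1847 to 2003 in PASMCs and 1907 to 2289 in BSMCs) and Ccl27a with Il11ra1 (1370 to 1637 in SmMCll, 1268 to 1358 in PASMCs and 1335 to 1746 in BSMCs). Ccl27a also has near-identical copies. In all, 19 of the 56 members overlap another gene of the table, and whether the authors' counting used strand is not given in the sources used here, so reads of such pairs cannot be told apart.

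The 13 members below the minimum level were Ccl20, Ccl24, Ccl28, Ccr3, Ccr4, Ccr8, Ccr9, Cxcl3, Cxcl11, Cxcr1, Cxcr5, Xcl1 and Xcr1, and none was absent from every library. Ccl20, a ligand that draws dendritic cells and lymphocytes to mucosa, was at 6, 39 and 12 in SmMCll and at 0 in all PASMCs and BSMCs libraries. Ccr4 was likewise highest in SmMCll, at 10, 6 and 3, with at most 1 elsewhere. Ccl24, another eotaxin, reached 55 in BSMCs replicate 1, Ccr9 42 in BSMCs replicate 3, Xcr1 42 in BSMCs replicate 2 and Cxcr5 28 in BSMCs replicate 3. Cxcr1 reached 13, Xcl1 7, Ccr3 9 and Ccr8 6, each in a BSMCs library, and Ccl28 did not exceed 5 in any library. With no minimum level, Ccl24, Cxcr1 and Cxcr5 were called lower in PASMCs than in BSMCs, and Ccl20 and Ccr4 higher in SmMCll than in PASMCs. In SmMCll against BSMCs the same setting called Ccl20 and Ccr4 higher and Ccl24, Cxcr1, Xcl1 and Xcr1 lower.

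Of the genes that act with chemokines, those that build, carry or trim heparan sulfate, which holds chemokines, were more often called higher than lower against BSMCs: 12 of 23 were higher and 1 lower in SmMCll against BSMCs, 8 higher and 0 lower in PASMCs against BSMCs, and 5 higher and 3 lower in SmMCll against PASMCs. Of all genes 23.7% were higher and 18.2% lower in SmMCll against BSMCs, beside 52.2% and 4.35% of this list. In PASMCs against BSMCs 13.2% of all genes were higher and 8.88% lower, beside 34.8% and none of the list. Between SmMCll and PASMCs 9.39% of all genes were higher and 6.83% lower in SmMCll, beside 21.7% and 13% of the list. The median log2 fold change was 0.57 in SmMCll against BSMCs and 0.52 in PASMCs against BSMCs, beside 0.05 over all genes in each. Sulf1, a sulfatase that trims these chains, was at 3962 ± 280 in SmMCll, 2376 ± 397 in PASMCs and 1153 ± 369 in BSMCs (1.82 in SmMCll against BSMCs, SE 0.20, adjusted p = 4.23e-05; 1.07 in PASMCs against BSMCs, SE 0.20, adjusted p = 0.00288). Gpc3, a glypican that carries them, was at 3882 ± 298 in SmMCll, 2341 ± 201 in PASMCs and 1160 ± 102 in BSMCs (SmMCll against BSMCs 1.74, SE 0.12, adjusted p = 1.13e-06). Hpse, which cleaves them, was at 307 ± 33.8 in SmMCll, 87.0 ± 29.5 in PASMCs and 153 ± 45.9 in BSMCs (SmMCll against PASMCs 1.85, SE 0.28, adjusted p = 0.000801).

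Genes of leukocyte adhesion moved in both directions. In SmMCll against PASMCs 7 of 17 were higher and 0 lower, in PASMCs against BSMCs 1 was higher and 6 lower, and in SmMCll against BSMCs 5 were higher and 6 lower. Set beside the shares of all genes just given, 41.2% were higher in SmMCll against PASMCs, 35.3% lower in PASMCs against BSMCs, and 29.4% higher and 35.3% lower in SmMCll against BSMCs. Vcam1, the stromal and endothelial ligand of leukocyte integrins, was at 3988 ± 128 in SmMCll, 1989 ± 64.1 in PASMCs and 1668 ± 218 in BSMCs (SmMCll against PASMCs 1.00, SE 0.11, adjusted p = 0.000125; SmMCll against BSMCs 1.26, SE 0.11, adjusted p = 9.78e-06). Itgb2, the integrin chain of leukocytes, was at 14.7 ± 5.51 in SmMCll, 9.33 ± 4.51 in PASMCs and 650 ± 42.0 in BSMCs (PASMCs against BSMCs -6.07, SE 0.39, adjusted p = 2.1e-06; SmMCll against BSMCs -5.43, SE 0.39, adjusted p = 2.11e-06).

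Of 16 chemokine-like ligands and partners, 5 were higher and 1 lower in SmMCll against PASMCs, 1 higher and 7 lower in PASMCs against BSMCs, and 5 higher and 5 lower in SmMCll against BSMCs. The shares were 31.2% higher (all genes 9.39%) in the first of these, 43.8% lower (8.88%) in the second and 31.2% each way (23.7% higher and 18.2% lower) in the third. Dpp4, the peptidase CD26 that trims the amino end of Cxcl12 and other chemokines, was at 640 ± 66.5 in SmMCll, 79.7 ± 36.6 in PASMCs and 103 ± 49.1 in BSMCs (SmMCll against PASMCs 3.11, SE 0.42, adjusted p = 0.000421; SmMCll against BSMCs 2.75, SE 0.42, adjusted p = 0.000392). The platelet chemokine Pf4, whose symbol lies outside the nomenclature used here, was at 34.7 ± 8.96 in SmMCll, 16.3 ± 8.74 in PASMCs and 387 ± 151 in BSMCs (PASMCs against BSMCs -4.51, SE 0.43, adjusted p = 3.5e-05). Of 27 genes that carry the receptor signal, 8 were higher and 2 lower in SmMCll against PASMCs, 2 higher and 4 lower in PASMCs against BSMCs, and 7 higher and 7 lower in SmMCll against BSMCs. The 29.6% higher in SmMCll against PASMCs exceeded the 9.39% of all genes, while 25.9% each way in SmMCll against BSMCs was near the 23.7% and 18.2% of all genes. Arrb1, an arrestin that binds activated and atypical receptors, was at 1145 ± 47.2 in SmMCll, 715 ± 73.6 in PASMCs and 390 ± 99.9 in BSMCs and was called in all comparisons (adjusted p = 0.029 in SmMCll against PASMCs, 0.00621 in PASMCs against BSMCs and 7.73e-05 in SmMCll against BSMCs).

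Of 33 inflammatory inducers and NF-kappaB genes, 7 were higher and 0 lower in SmMCll against PASMCs, 3 higher and 6 lower in PASMCs against BSMCs, and 12 higher and 4 lower in SmMCll against BSMCs. As shares these were 21.2% higher (all genes 9.39%) in SmMCll against PASMCs, 9.09% higher (13.2%) and 18.2% lower (8.88%) in PASMCs against BSMCs, and 36.4% higher (23.7%) and 12.1% lower (18.2%) in SmMCll against BSMCs. Il1r1, the interleukin-1 receptor, was at 3356 ± 146 in SmMCll, 1842 ± 279 in PASMCs and 1085 ± 462 in BSMCs (SmMCll against PASMCs 0.88, adjusted p = 0.022; SmMCll against BSMCs 1.71, adjusted p = 0.000178; PASMCs against BSMCs 0.83, adjusted p = 0.0252). The inducers Il1b and Tnf were lower in SmMCll and PASMCs than in BSMCs, with Il1b at 2.33 ± 0.577 in SmMCll, 0 in PASMCs and 638 ± 149 in BSMCs (adjusted p = 5.28e-07 for SmMCll and 3.41e-07 for PASMCs). Tnf was at 4.00 ± 1.00 in SmMCll, 0.333 ± 0.577 in PASMCs and 109 ± 37.3 in BSMCs (adjusted p = 0.000118 for SmMCll and 1.93e-05 for PASMCs). Immediate early genes, which also rise when tissue is dissociated, were higher for 8 of 26 and lower for 1 in PASMCs against BSMCs, higher for 2 and lower for 6 in SmMCll against PASMCs, and higher for 6 and lower for 3 in SmMCll against BSMCs. The shares were 30.8% higher (all genes 13.2%) in PASMCs against BSMCs and 23.1% lower (6.83%) in SmMCll against PASMCs, and in SmMCll against BSMCs 23.1% higher and 11.5% lower, near or below the 23.7% and 18.2% of all genes. Atf3, a stress-induced transcription factor, was at 461 ± 66.0 in SmMCll, 1555 ± 445 in PASMCs and 489 ± 121 in BSMCs (SmMCll against PASMCs -1.72, SE 0.22, adjusted p = 0.00034; PASMCs against BSMCs 1.66, SE 0.22, adjusted p = 0.000366). The part of handling in the chemokine levels was not tested.

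Of the 81 member calls, 18 were lost in at least 1 alternative that tested them and none reversed. The other 63 held wherever they were tested, 41 of them in all 20 alternatives and 22 in all but the minimum of 50, which left those genes untested. The losses listed below are mainly by library left out, and some of these calls were also lost under other settings. With only the 2 groups fitted, Ccl7 (adjusted p = 0.0796), Ccr10 (0.0643) and Cxcl16 (0.0974) lost their calls in PASMCs against BSMCs. In PASMCs against BSMCs, Cxcl16 lost its call without any 1 library other than BSMCs replicate 2, with an adjusted p of 0.0534 without SmMCll replicate 1 to 0.118 without PASMCs replicate 1. Ccr10 lost its call (-2.29, adjusted p = 0.0384) without PASMCs replicate 1 (0.0528), 2 (0.117) or 3 (0.092), BSMCs replicate 1 (0.0986) or 3 (0.102), or SmMCll replicate 1 (0.0564) or 2 (0.0524). Ccl7 lost it without PASMCs replicate 1 (0.131) or 2 (0.0621), BSMCs replicate 1 (0.11) or 3 (0.0981) or SmMCll replicate 2 (0.0547), and Ccl27a without PASMCs replicate 1 (0.0643) or 2 (0.0504).

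In SmMCll against PASMCs, Ackr4 lost its call without SmMCll replicate 2 (0.197) or 3 (0.146), PASMCs replicate 1 (0.17) or 2 (0.131) or BSMCs replicate 2 (0.0509). Ccl21a lost it without SmMCll replicate 1 (0.0944), 2 (0.158) or 3 (0.0911), PASMCs replicate 1 (0.13) or 2 (0.162) or BSMCs replicate 1 (0.0564). Cxcl5 lost it without SmMCll replicate 1 (0.0827), 2 (0.112) or 3 (0.0583) or PASMCs replicate 1 (0.0854) or 2 (0.0901). Ccl25 lost it without SmMCll replicate 1 (0.0723) or 2 (0.115) or PASMCs replicate 1 (0.0535) or 2 (0.106). Ccl7 lost it without SmMCll replicate 1 (0.0886) or 2 (0.0574) or PASMCs replicate 1 (0.0732). Cx3cl1 lost it without SmMCll replicate 2 (0.0665) or 3 (0.0509) or PASMCs replicate 1 (0.0696) or 2 (0.0524).

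In SmMCll against BSMCs, Ccl8 (1.12, adjusted p = 0.0447) lost its call without any 1 library other than BSMCs replicates 1 and 3, with an adjusted p of 0.0553 without PASMCs replicate 3 to 0.121 without SmMCll replicate 2. Other scalings of the libraries also ended the Ccl8 call, with an adjusted p from 0.0522 (cyclic loess) to 0.0816 (quantile). So did array weights (0.0524), the fit without trend and robust options (0.0759) and only the 2 groups fitted (0.0681). Ccl5 (-1.89, adjusted p = 0.0453) lost its call without SmMCll replicate 1 (0.157), 2 (0.067) or 3 (0.0896) or BSMCs replicate 1 (0.143) or 3 (0.0743). Cxcl15 (-1.38, adjusted p = 0.0339) lost it without SmMCll replicate 1 (0.114), 2 (0.0592) or 3 (0.0637) or BSMCs replicate 1 (0.0853). Ccr10 (-2.15, adjusted p = 0.0295) lost it without SmMCll replicate 3 (0.126) or BSMCs replicate 1 (0.0723) or 3 (0.082), and Cxcr4 without SmMCll replicate 1 (0.0615) or 3 (0.0784) or BSMCs replicate 1 (0.0779). Cxcl5 lost it without SmMCll replicate 1 (0.0587) or 2 (0.0839) or BSMCs replicate 1 (0.0643), Cxcl12 without SmMCll replicate 2 (0.0588) or 3 (0.0761), and Ccrl2 without SmMCll replicate 3 (0.0514).

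Leaving out a library also added calls. Without BSMCs replicate 2, Ackr1 was lower in PASMCs (-2.30, adjusted p = 0.0268) and in SmMCll (-2.28, adjusted p = 0.0228) than in BSMCs, and Cx3cl1 was higher in PASMCs than in BSMCs (adjusted p = 0.0357). In SmMCll against BSMCs, Ccr7 was lower without BSMCs replicate 2 (adjusted p = 0.0311) or PASMCs replicate 3 (0.0475). There Cxcl9 was higher without BSMCs replicate 1 (0.0426) or 2 (0.0249), and Cxcl17 was higher without BSMCs replicate 2 (0.0201). Cxcl9 was lower in PASMCs than in BSMCs without BSMCs replicate 3 (0.00288). In SmMCll against PASMCs, Cxcl12 was higher without BSMCs replicate 2 (0.0274), and Cxcr6 was higher without BSMCs replicate 1 (0.0491) or 3 (0.0442).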

How the data were processed

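RNA from 9 samples of sorted mouse lung smooth muscle cells, 3 in each of 3 groups taken from the labels, was made into SMART-Seq v4 libraries. Per the submitters' processing notes, the tools were featureCounts 2.0.4, STAR 2.7.11a, DESeq2 1.36.0, Trimmomatic 0.39 and Picard 3.1.1 on build mm39, their roles and order not stated. What the authors deposited is a table with 1 score per gene and library, a normalized read count that had been rounded to a whole number. This was read from the values: whole numbers were absent at regular spacing in some columns or over-represented in the others, which also gave each library's factor and its depth, 6.39 to 10.0 M reads. A count test was therefore not used. P-values for the 15647 genes that reached 10 in 3 or more libraries came from 1 fit of 3 group means to log2(value + 1) (limma 3.58.1 with trend and robust options, R 4.3.3), adjusted by Benjamini-Hochberg; the log2 fold change of a low gene is understated by the pseudocount of 1. Where a group was at 0, a fold is a lower bound against 3 reads per library, averaged over the group as 2.87 normalized counts in SmMCll, 2.78 in PASMCs and 3.29 in BSMCs. Exact 95% intervals were computed for read ratios where 1 group had few reads. These intervals and the floors cover counting error only, since molecules carried no identifiers. Marker sums are CPM, scaled to a library's normalized total. Coordinates are the table's (mm39), exon lengths are from GENCODE vM21 for all 56 members, and promoters are from RefSeq, matched by symbol for 42 of 56. Of the same-numbered samples, the correlation of deviations ran from -0.124 to 0.136, so the numbers were not taken as pairs. The counts and sums over members include 1 gene that is not reported here by name. No 2 libraries of a group were copies. The members and gene lists were chosen with earlier results of these data known. The named genes follow a rule: library values for called members and the most abundant, up to 3 called genes per pathway list and direction with a mean of at least 100, and marker sums; the text names a part of these. Motifs and promoters were chosen after the levels were seen. The script was tested on simulated data. Alternatives changed the pseudocount, the minimum level, scaling, moderation, weights, the groups fitted, the replicate block and each library. Python 3.11.15, pandas 2.3.3, numpy 2.4.6 and matplotlib 3.10.9 were used.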

Additional observations from a re-analysis of the deposited data

How the results depend on the processing

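The 3 counts of called members, 29 in PASMCs against BSMCs, 20 in SmMCll against PASMCs and 32 in SmMCll against BSMCs, stayed within 1.5 times in every alternative but 1. With a minimum of 50 in place of 10, which tests fewer genes, 17 were called in PASMCs against BSMCs (15 lower) and 21 in SmMCll against BSMCs (13 lower). Leaving out 1 library gave 25 to 32, 14 to 21 and 25 to 35 called members in these comparisons, and 1 to 2 lower in SmMCll against PASMCs. Counts over all genes moved more. In PASMCs against BSMCs the 3451 calls became 1926 with only those groups fitted and ran from 1724 to 6698 with 1 library left out, the highest without BSMCs replicate 2. In SmMCll against PASMCs the 2539 calls became 5082 with array weights and 4345 with only those groups fitted, and ran from 1679 to 3219 with 1 library left out, the lowest without SmMCll replicate 2. With 1 library left out, SmMCll against BSMCs gave 4373 to 8370. The cause of these shifts was not tested. With the replicate block 29, 20 and 32 members were called; in PASMCs against BSMCs Ccr10 was lost (adjusted p = 0.0503) and Ackr4 gained, and in SmMCll against BSMCs Ccl5 was lost (0.0576) and Cxcl9 gained. Scaling to library totals turned the split over all genes to 1817 higher and 2106 lower in PASMCs against BSMCs (2062 and 1389 as reported) and to 3042 higher and 4065 lower in SmMCll against BSMCs (3706 and 2847), moving the median of all genes in the last to -0.11 from 0.05. Members then gave 29, 19 and 32 calls. Of 48 member values without a call, 17 passed in at least 1 alternative. Depth limits the members below about 10 normalized counts, and each group holds 3 libraries of 1 mouse line.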
